A study of Mus musculus with 4 samples.

Results

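The 8 genes described here, H2-Aa, H2-Ab1, H2-Eb1, H2-DMa, H2-Oa, H2-Ob, Cd74 and Ciita, serve the presentation of antigen on MHC class II molecules, and they were read in stem and progenitor cells of mouse bone marrow with and without the hedgehog signal transducer Smoothened (Smo). They were chosen by name, with earlier results of these data known, so their counts beside shares of all probe sets are descriptive. Every probe set whose only gene in the array's annotation table is one of them was taken, which gave 16 probe sets for 8 of 18193 named genes. Lin-ckit+Sca1+ (LSK) cells, a marrow fraction enriched for hematopoietic stem cells and early multipotent cells, and Lin-ckit+Sca1- myeloid progenitors (MP) were sorted from 1 pool of 4 Smo-deficient mice (Smo flox/flox, Mx1Cre+) and 1 pool of 4 wild-type (WT) mice (Smo flox/flox, Mx1Cre-). This gave 4 arrays in 4 groups of 1: Smo-deficient LSK, WT LSK, Smo-deficient MP and WT MP. The floxed Smo alleles were thus carried by both genotypes. Mice of both genotypes, males and females mixed, received polyI:C, an inducer of interferon, as 3 injections of 20 ug/g, and marrow was taken 6 weeks later. The Mx1 promoter that drives Cre answers to interferon and is not restricted to blood cells. The strain field reads C57BL/6x130 for Smo-deficient LSK, C57BL/6x129 for WT LSK, C57BL/6x132 for Smo-deficient MP and C57BL/6x131 for WT MP, although both populations of a genotype came from 1 pool. The number in that field rises by 1 from each sample to the next in the order of the deposit, so it was not read as naming 4 strains. No age is given in the labels.

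MHC class II molecules are pairs of an alpha and a beta chain that carry peptides from the endosome to the cell surface, where CD4 T cells read them. The invariant chain, encoded by Cd74, holds the groove closed until its remnant is exchanged for a peptide, a step catalysed by the H2-DM pair and held back by the H2-O pair. Ciita is the coactivator that switches the family on together with the RFX and NF-Y factors, and class II is best known from B cells, dendritic cells and macrophages.

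Promoters of the family are known for an X box, bound by RFX, followed by a Y box, an inverted CCAAT box bound by NF-Y. The stretches below are shown because their genes share that layout. The 150 bases before the start of 4 members are printed 5′ to 3′ on the gene's strand, from RefSeq on build GRCm38.p6, with GCAAC (within the X box) and GATTGG (within the Y box) in capitals.
H2-Ob, chr17:34238755-34238904, plus strand: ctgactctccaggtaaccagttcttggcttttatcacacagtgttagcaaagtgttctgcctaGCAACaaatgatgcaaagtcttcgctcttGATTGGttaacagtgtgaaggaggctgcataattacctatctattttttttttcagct
H2-Aa, chr17:34287824-34287973, minus strand: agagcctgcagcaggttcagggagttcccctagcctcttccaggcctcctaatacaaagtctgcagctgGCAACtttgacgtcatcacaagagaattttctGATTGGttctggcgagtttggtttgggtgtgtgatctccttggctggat
H2-Eb1, chr17:34305717-34305866, plus strand: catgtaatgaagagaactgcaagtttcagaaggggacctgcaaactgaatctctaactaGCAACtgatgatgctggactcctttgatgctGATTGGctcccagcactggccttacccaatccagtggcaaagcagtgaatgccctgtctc
H2-Oa, chr17:34092229-34092378, plus strand: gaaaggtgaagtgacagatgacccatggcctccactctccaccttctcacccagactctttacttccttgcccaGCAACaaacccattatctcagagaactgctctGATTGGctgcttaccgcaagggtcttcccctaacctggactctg

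GCAAC began 76 bases (H2-Oa) to 91 bases (H2-Eb1) before the start, and 24 bases (H2-Ob) to 27 bases (H2-Aa and H2-Oa) lay between it and GATTGG. The letters were chosen after these windows had been read. Searched on both strands, GCAAC followed by GATTGG with 10 to 40 bases between them was found in 165 of 32851 promoter windows of 300 bases (0.502%), GATTGG alone in 16.1% and GCAAC alone in 35.2%. Of the 5 members whose windows were searched, H2-Oa, H2-Ob, H2-Aa and H2-Eb1 held the pair. Neither of the 2 windows of H2-DMa did, which says only that these letters are not in those windows. Of 17 other genes of the class II pathway with a window, H2-Eb2 held the pair, and none of 12 regulators of Ciita and interferon gamma signalling or of 15 genes of class I presentation did. The limit given for H2-DMa holds for all of these, since other forms of the X and Y boxes were not searched.

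The arrays were read against their labels first. On 1427049_s_at, Smo was at 6.13 in Smo-deficient LSK, 10.81 in WT LSK, 6.36 in Smo-deficient MP and 10.40 in WT MP, as log2 intensity. On 1427048_at it was at 6.96, 10.02, 7.94 and 9.72 in the same 4 arrays, and 1442215_at was dim. The 5 measured LSK markers passed as higher in LSK, from 1.31 (Slamf1) through Meis1, Hlf and Mecom to 3.78 (Procr). The 7 myeloid progenitor markers passed as lower, Klf1, Elane, Ms4a3, Prtn3, Ctsg and Gata1 by the most (-1.69 to -0.97). Values are log2 of the deposited intensity, and a probe set was counted and tested when its mean over the 4 arrays was above 7.23, the median of all probe sets, which left 22518 probe sets. With 1 array per group, differences between genotypes have no replicate check. They are counted at 2-fold. As a yardstick, the spread is the scaled median absolute deviation that such a difference has among probe sets of similar brightness, and it is not a replicate error.

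Of the 16 probe sets, 12 were past the filter on dim signals, and they covered 7 of the 8 genes. All 3 probe sets of Ciita had means below it, as did 1 of 4 of H2-Aa, and these are called dim. On an array the brightness of a probe set depends on its probes, so levels are compared between arrays and not between genes.

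LSK was set against MP because the MP cells served the study as the comparison for genes enriched in LSK. Class II genes were higher in LSK cells of both pools: H2-Ob 3.95-fold, H2-Aa 2.11-fold, H2-DMa 1.85-fold, H2-Eb1 1.52-fold and H2-Ab1 1.47-fold by the mean of the pools, on the brightest probe set of each gene. These 5 genes passed, none fell, and H2-Oa and Cd74 did not pass. The test was limma with the pool as a block and Benjamini-Hochberg adjustment over all 22518 probe sets. By probe set, 8 of 12 passed as higher in LSK and 0 as lower, where 15.1% of all probe sets passed as higher and 7.19% as lower. The other 4 did not pass. Although 11 of the 12 had an unadjusted p under 0.05, the share of all probe sets at that level was not counted. That count is therefore not read further. The median difference of the 12 was 0.50, against -0.00 over all probe sets. All 12 were above 0 in both pools, where 38.1% of all probe sets were, and 2 of them (1 of H2-Aa and that of H2-Ob) were at least 2-fold higher in both, where 2.14% were. Calls higher in LSK made up 67.7% of all passing calls, or 53.7% if the arrays were first quantile normalized again.

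H2-Aa and H2-Ab1 encode the alpha and beta chains of I-A, the class II molecule of C57BL/6 mice. On 1435290_x_at H2-Aa had log2 intensities of 12.24 in Smo-deficient LSK, 11.59 in WT LSK, 11.10 in Smo-deficient MP and 10.57 in WT MP. Both LSK arrays were above both MP arrays, and LSK minus MP was 1.08 ± 0.10 (SE, 2 pairs; limma adjusted p = 0.000898). Of the 12 class II probe sets past the filter 10 had no overlap in this direction, as did 30.4% of all probe sets. The other H2-Aa probe sets past the filter passed too, at 0.97 on 1438858_x_at and 0.42 on 1452431_s_at. The dim 1443783_x_at, at 8.18, 7.37, 6.63 and 6.06 in Smo-deficient LSK, WT LSK, Smo-deficient MP and WT MP, kept the same order of arrays.

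H2-Ab1 on 1450648_s_at had 10.77 in Smo-deficient LSK, 10.53 in WT LSK, 10.02 in Smo-deficient MP and 10.17 in WT MP. LSK was above MP by 0.74 in the Smo-deficient pool and by 0.36 in the WT pool, and by 0.55 ± 0.13 in the mean (SE, 2 pairs; limma adjusted p = 0.0273). The other H2-Ab1 probe sets did not pass, with means of 0.44 on 1451721_a_at (adjusted p = 0.0821) and 0.32 on 1425477_x_at (adjusted p = 0.157). The call of H2-Ab1 thus rested on 1 of 3 probe sets, and it was lost with the median over the probe sets (0.44, adjusted p = 0.0535).

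H2-Eb1 encodes the beta chain of I-E. It had 10.06 in Smo-deficient LSK, 9.42 in WT LSK, 9.23 in Smo-deficient MP and 9.03 in WT MP. Both LSK arrays were again the highest, with LSK minus MP at 0.82 in the Smo-deficient pool and 0.39 in the WT pool, and a mean of 0.60 ± 0.14 (SE, 2 pairs; limma adjusted p = 0.0251).

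H2-DMa encodes the alpha chain of the peptide exchange factor H2-DM. On 1422527_at it had 12.39 in Smo-deficient LSK, 12.11 in WT LSK, 11.63 in Smo-deficient MP and 11.10 in WT MP. LSK minus MP was 0.89 ± 0.10 (SE, 2 pairs; limma adjusted p = 0.00186), and it was the only one of the 5 passing genes whose LSK minus MP was smaller in the Smo-deficient pool (0.76) than in the WT pool (1.01). Its second probe set, 1459872_x_at, passed at 0.45. There the pools were level, at 0.46 in the Smo-deficient pool and 0.45 in the WT pool, so the smaller value held on 1422527_at only. No tested probe set of the partner chain passed. On the 2 annotated to both H2-DMb1 and H2-DMb2, LSK minus MP was 0.39 on 1418638_at (limma adjusted p = 0.0637) and 0.19 on 1449580_s_at (adjusted p = 0.290). On those of H2-DMb2 alone it was -0.10 on 1419744_at (limma adjusted p = 0.553) and 0.03 on 1443687_x_at (adjusted p = 0.913), and 1443686_at was dim.

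H2-Oa and H2-Ob encode the chains of H2-O, the inhibitor of H2-DM known from B cells and thymic epithelium. H2-Ob on 1440837_at had 11.02 in Smo-deficient LSK, 9.81 in WT LSK, 8.96 in Smo-deficient MP and 7.90 in WT MP. The 4 arrays stood well apart, and LSK minus MP was 1.98 ± 0.11 (SE, 2 pairs; limma adjusted p = 0.00022), 2.06 in the Smo-deficient pool and 1.91 in the WT pool. A probe set annotated to both H2-Ob and the neighbouring lncRNA gene Gm20506, 1422201_at, gave a much smaller difference. Its log2 intensities were 8.02 in Smo-deficient LSK, 7.71 in WT LSK, 7.88 in Smo-deficient MP and 7.61 in WT MP, and LSK minus MP was 0.12 (limma adjusted p = 0.449). The size of the H2-Ob differences therefore rests on 1 probe set that a second one did not share.

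H2-Oa had 9.71 in Smo-deficient LSK, 9.45 in WT LSK, 9.46 in Smo-deficient MP and 9.14 in WT MP. WT LSK and Smo-deficient MP were level, and LSK minus MP was 0.28 ± 0.11 (SE, 2 pairs; limma adjusted p = 0.122), which did not pass. Cd74 showed the same order of arrays, with 10.04 in Smo-deficient LSK, 9.60 in WT LSK, 9.60 in Smo-deficient MP and 9.44 in WT MP. Its LSK minus MP of 0.30 ± 0.12 did not pass either (limma adjusted p = 0.138).

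Ciita was dim on every array. Its brightest probe set, 1421210_at, had 6.85 in Smo-deficient LSK, 6.88 in WT LSK, 6.83 in Smo-deficient MP and 6.70 in WT MP, all below the filter. The other Ciita probe sets were dimmer still, from 6.28 to 6.52 on 1421211_a_at and from 4.72 to 5.06 on 1447075_at. A difference in Ciita could have gone undetected at these signals.

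**Figure D1:**
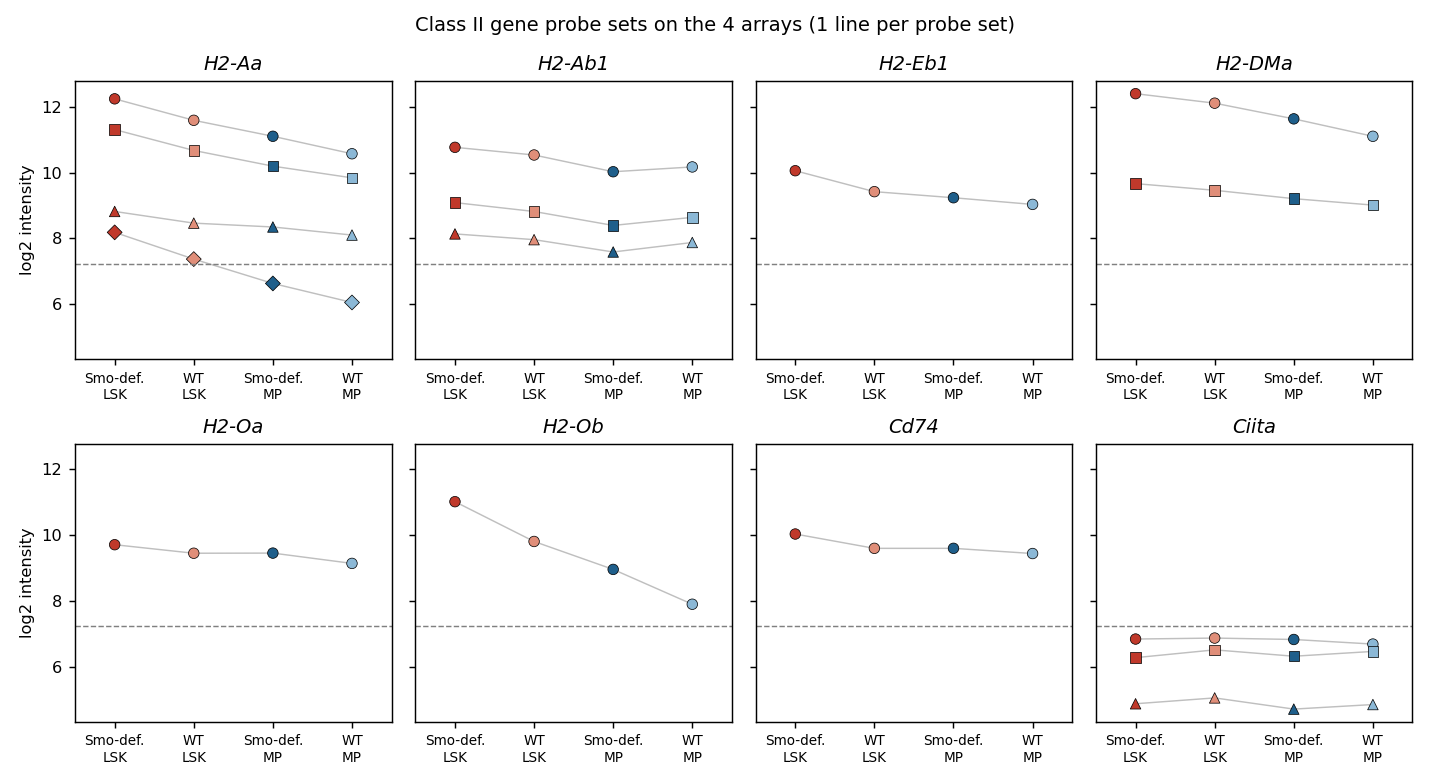
Log2 intensity (vertical axis) of the 16 probe sets of the 8 class II genes on the 4 arrays; each grey line joins 1 probe set, and the dashed line is the filter at 7.23. H2-Ob is highest in Smo-deficient LSK (11.02) and lowest in WT MP (7.90), and all Ciita probe sets lie under the filter.

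**Figure D2:**
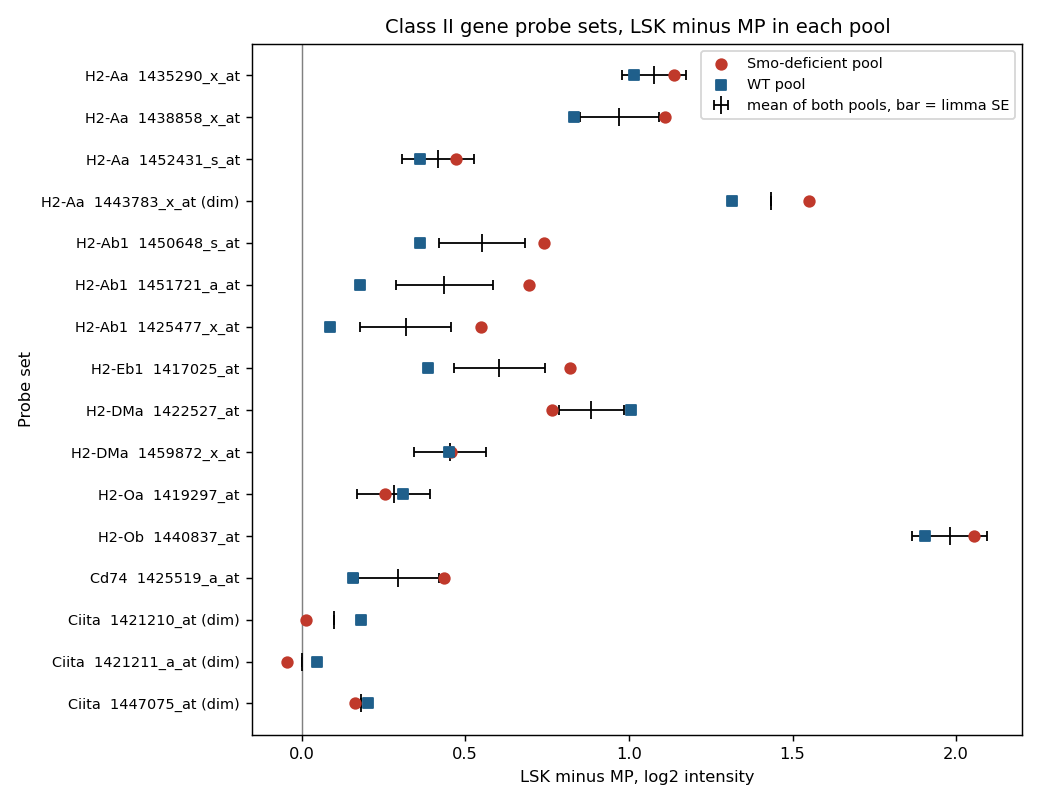
LSK minus MP (log2 intensity, horizontal axis) for each probe set in the Smo-deficient pool (circles) and the WT pool (squares), with the mean and limma's SE where tested. All 12 probe sets past the filter are above 0 in both pools, from a mean of 0.28 (H2-Oa) to 1.98 (H2-Ob).

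The pool block carried these calls. Without it, the difference between the genotypes enters the error, and limma passed 0 of the 7 genes past the filter (5 with an unadjusted p under 0.05), with adjusted p from 0.0765 for H2-DMa to 0.195 for H2-Eb1 among the 5 genes named. Of all 22518 probe sets, 5272 had such an unadjusted p in that fit. With 2 pools of different genotype, the p-values rest on how far LSK minus MP differed between the pools and not on the spread between mice. The variance behind them and the SEs was also drawn by limma from other probe sets, with a trend on brightness.

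The genotypes were then compared within each population, the question being what Smo loss does to these genes. Only the Smo-deficient mice carried Mx1Cre, and each genotype was 1 pool. In these differences Smo loss therefore cannot be told apart from Cre or from the pool. In LSK, 7 of the 8 genes were higher in Smo-deficient cells: H2-Ob 2.31-fold, H2-Aa 1.57-fold, H2-Eb1 1.55-fold, Cd74 1.35-fold, H2-DMa 1.22-fold, H2-Oa 1.20-fold and H2-Ab1 1.17-fold. H2-Ob alone was 2-fold, and H2-Aa and H2-Eb1 were past 1.5-fold. All 12 probe sets past the filter were above 0, where 46.7% of all probe sets were, and 4 were at least 1.5-fold higher against 3.06% of all. One of the 12 was at least 2-fold higher, against 0.595% of all. None was 1.5-fold lower, against 0.884%, or 2-fold lower, against 0.226%. The median of the 12 was 0.32, against -0.02 over all probe sets.

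The 3 larger differences exceeded 2 spreads. H2-Ob differed by 1.21 (5.25 spreads) on 1440837_at, but by 0.31 on the shared probe set 1422201_at. H2-Aa differed by 0.65, 0.63 and 0.35 on its probe sets past the filter, and by 0.81 on the dim 1443783_x_at. H2-Eb1 differed by 0.64 (2.76 spreads). Cd74 (0.43), H2-DMa (0.29), H2-Oa (0.26) and H2-Ab1 (0.23) lay within 2 spreads of 0, and Ciita had -0.03, -0.24 and -0.18 on its 3 dim probe sets.

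In MP, H2-Ob was 2.08-fold, H2-Aa 1.44-fold and H2-DMa 1.44-fold higher in Smo-deficient cells, and H2-Ab1 was lower at 0.90-fold. Of the 12 probe sets past the filter 9 were above 0, where 40.3% of all were, and the 3 below 0 were the 3 of H2-Ab1. One probe set was at least 2-fold and 1.5-fold higher, H2-Ob, against 0.28% and 2.35% of all, and none was 1.5-fold lower, against 2.63%, or 2-fold lower, against 0.36%. H2-Ob was 2-fold higher in both populations, as were 0.12% of all probe sets. Quantile and cyclic loess normalization gave the same counts above 0, 12 in LSK and 9 in MP. The median of the 12 was 0.22, against -0.05 over all probe sets. H2-Ob differed by 1.06 (4.10 spreads) on 1440837_at, but by 0.28 on 1422201_at. H2-Aa differed by 0.53, 0.35 and 0.24 on its probe sets past the filter. H2-DMa differed by 0.53 on 1422527_at but by 0.20 on 1459872_x_at, and H2-Oa (0.31), H2-Eb1 (0.20), Cd74 (0.16) and Ciita (0.14 on its brightest probe set) lay within 2 spreads of 0.

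**Figure D3:**
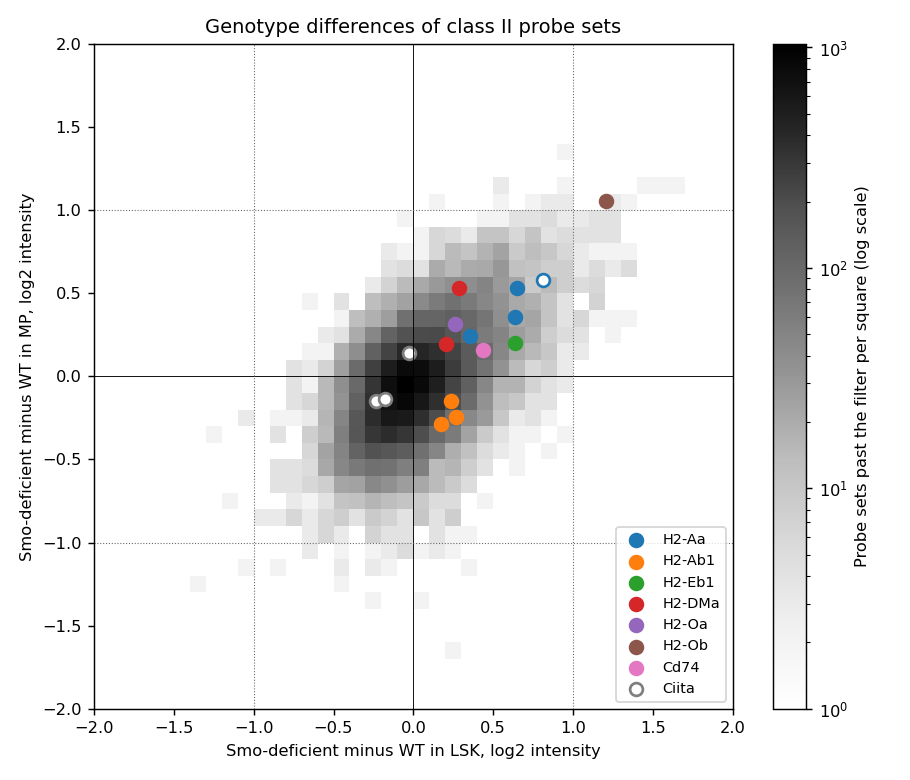
Smo-deficient minus WT in LSK (horizontal) and in MP (vertical), both as log2 intensity, for the 16 class II probe sets (open symbols are below the filter) over the density of the 22518 probe sets past it, of which 14 fall outside the axes; dotted lines mark 2-fold. H2-Ob lies past 2-fold in both populations (1.21 and 1.06), and the 3 probe sets of H2-Ab1 lie right of 0 and below 0.

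Lists of markers of mature cells were read in the same arrays, on the markers past the filter. In Smo-deficient LSK, 9 of 9 neutrophil, 8 of 8 macrophage, 7 of 8 B cell, 4 of 5 T and NK cell and 3 of 5 dendritic cell markers were above WT, where 46.7% of all probe sets were, with medians of 0.79, 0.67, 0.58, 0.09 and 0.20. In MP the counts were 9 of 9, 4 of 8, 6 of 8, 3 of 5 and 2 of 5, where 40.3% of all probe sets were above 0, with medians of 0.21, 0.11, 0.15, 0.01 and -0.10. With the dim markers included, the macrophage median in MP was -0.10. The neutrophil proteases Mmp8 (1.25) and Mmp9 (1.13) were past 2-fold in LSK, as was the LSK marker Procr (1.11). The summed intensity of the 9 measured B cell markers was 3640 in Smo-deficient LSK and 2525 in WT LSK, and 2915 in Smo-deficient MP and 2505 in WT MP. For 10 macrophage markers it was 3741 in Smo-deficient LSK and 2362 in WT LSK, and 3362 in Smo-deficient MP and 3082 in WT MP. For 9 neutrophil markers it was 132847 in Smo-deficient LSK and 82391 in WT LSK, and 115601 in Smo-deficient MP and 100866 in WT MP. Their part in the class II differences was not tested, and in such bulk samples more cells of a type and more RNA per cell cannot be told apart.

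The sum of the 9 dendritic cell markers was 8902 in Smo-deficient LSK, 5578 in WT LSK, 4399 in Smo-deficient MP and 3700 in WT MP. Without Flt3, a cytokine receptor that early progenitors also express, it was 3458 in Smo-deficient LSK, 3222 in WT LSK, 2502 in Smo-deficient MP and 2718 in WT MP. Smo-deficient MP was then the lowest (a sum chosen after the values were seen), with Tcf4 the brightest marker left. The markers past the filter other than Flt3 went both ways by genotype. Itgax differed by 0.56 in LSK and 0.58 in MP, Tcf4 by 0.20 and -0.20, Bst2 by -0.31 and -0.33, and Zbtb46 by -0.13 and -0.10. Flt3 alone had log2 intensities of 12.41 in Smo-deficient LSK, 11.20 in WT LSK, 10.89 in Smo-deficient MP and 9.94 in WT MP. The dendritic markers Xcr1, Siglech, Batf3 and Cd209a were below the filter. Among the B cell markers the signalling adaptor Blnk was 2-fold higher in Smo-deficient LSK (1.18). Pax5, the factor that commits cells to the B lineage, had genotype differences of 0.07 in LSK and -0.27 in MP. Ebf1, which acts before it, was dim at 6.90 in Smo-deficient LSK, 5.39 in WT LSK, 6.17 in Smo-deficient MP and 5.55 in WT MP. Between LSK and MP, 1 of 8 tested B cell markers (Cd79b, at 0.57) and 2 of 5 dendritic markers (Flt3 at 1.39 and Tcf4 at 0.78) passed as higher in LSK. One dendritic marker, Zbtb46 (-0.40), and 1 of 8 macrophage markers, Cd68 (-0.40), passed as lower, and 0 of 9 neutrophil and 0 of 5 T and NK cell markers passed. Over all probe sets 15.1% passed as higher and 7.19% as lower, so counts of 0 or 1 in lists this small say little.

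Of 19 other genes of the class II pathway past the filter, 1 rose in LSK, 2 fell and 16 did not pass, with a median LSK minus MP of -0.04, where 15.1% of all probe sets passed as higher and 7.19% as lower. The costimulatory ligand Cd86 rose by 0.52, and the lysosomal proteases Ctsl and Ctsh, which trim invariant chain and peptides, fell by 0.64 and 0.67 on the log2 scale. After quantile or cyclic loess normalization 4 of the 19 fell. None of the 19 was 2-fold by genotype. Over all probe sets, 0.595% were 2-fold higher and 0.226% lower in LSK, and 0.28% and 0.36% in MP. At least 1.5-fold higher in both populations were 2 of the 19: Ctsh, at 0.97 in LSK and 0.80 in MP, and Ctss, the protease that makes the last cuts in invariant chain, at 0.90 and 0.68. Taken alone, each population also had 2 of the 19 past that threshold, beside 3.06% of all probe sets in LSK and 2.35% in MP. A share for both populations together was not counted. One of the 19, the ubiquitin ligase Marchf8, was at least 1.5-fold lower in Smo-deficient MP (-0.59), against 2.63% of all. Ctss and Marchf8 were singled out after their values were seen. The factors that bind the X and Y boxes, also named outside the rule for named genes, were not 1.5-fold by genotype. Rfx5, a subunit of RFX, differed by 0.34 in LSK and 0.27 in MP, its RFX partner Rfxap by -0.09 and -0.51, and its partner Rfxank by 0.10 and -0.01. Of the NF-Y subunits, Nfya differed by 0.16 in LSK and 0.07 in MP, Nfyb by -0.08 and -0.28, and Nfyc by -0.04 and -0.25.

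Of 12 measured regulators of Ciita and of interferon gamma signalling past the filter, 3 rose in LSK, 2 fell and 7 did not pass, beside the same shares of all probe sets (15.1% and 7.19%). The interferon gamma receptor chain Ifngr2 rose by 0.76 and the other chain, Ifngr1, fell by 1.03 on the log2 scale. The interferon regulatory factors Irf2 (0.76) and Irf1 (0.67) rose and Irf8 (-1.08), a factor of monocyte and dendritic cell fate, fell. By genotype, Irf8 was 2.39-fold higher in Smo-deficient LSK and 1.81-fold in Smo-deficient MP. The repressor Bcl6 was higher by 1.08 in LSK and 1.01 in MP. Upward differences of 2-fold were seen for 2 of the 12 in LSK and 1 in MP, beside 0.595% and 0.28% of all probe sets. With the threshold at 1.5-fold the counts were 4 in LSK and 3 in MP, beside 3.06% and 2.35%. None of the 12 was 1.5-fold lower, against 0.884% in LSK and 2.63% in MP.

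Of 14 genes of class I presentation past the filter 9 rose in LSK, 1 fell and 4 did not pass, with a median of 0.26, where 15.1% of all probe sets passed as higher and 7.19% as lower. After quantile normalization 6 rose and 1 fell. Nlrc5, the relative of Ciita that drives class I genes, rose by 0.91, the peptide transporter subunits Tap1 and Tap2 by 0.54 and 0.48, the peptide trimming enzyme Erap1 by 0.39, the immunoproteasome subunit Psmb9 by 0.30 and the class I heavy chain H2-K1 by 0.29, while the chaperone Canx fell by 0.27 on the log2 scale. Their differences between genotypes had medians of 0.00 in LSK and -0.04 in MP, with 0 of 14 genes 1.5-fold in either population, and the MP median was 0.05 after quantile and 0.07 after cyclic loess normalization. Over all probe sets, 3.06% were 1.5-fold higher and 0.884% lower in LSK, and 2.35% and 2.63% in MP.

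**Figure D4:**
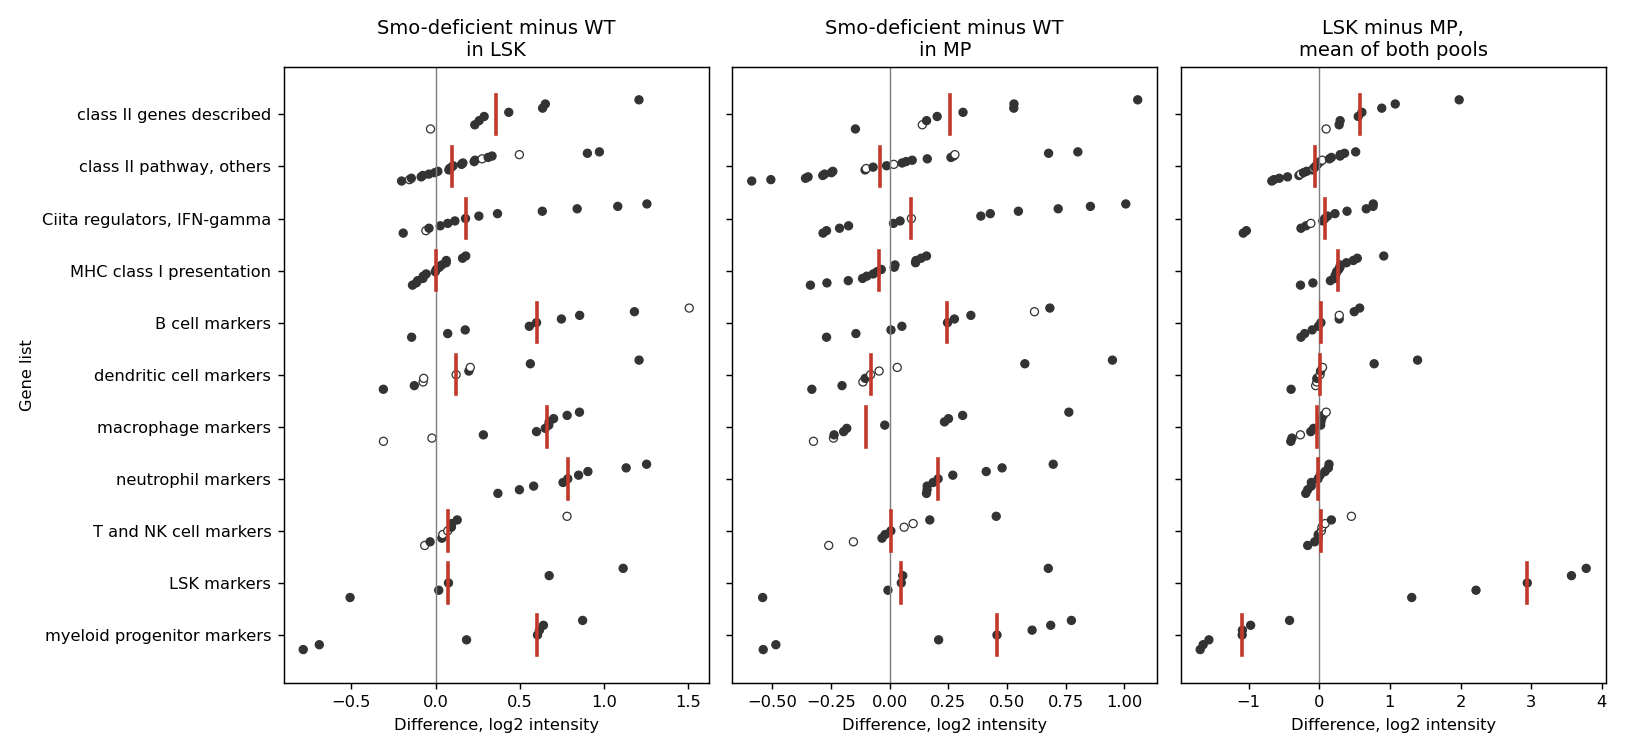
Differences in log2 intensity for each gene of each list on its brightest probe set: Smo-deficient minus WT in LSK (left), Smo-deficient minus WT in MP (middle) and LSK minus MP (right); open circles are below the filter and red bars are medians over all measured genes. Class II genes have medians of 0.36, 0.26 and 0.58, while the class I genes have genotype medians of 0.00 in LSK and -0.04 in MP (above 0 in MP after either normalization).

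H2-Oa, H2-DMa, H2-Ob, H2-Ab1, H2-Aa and H2-Eb1 lie close together on chromosome 17, interleaved with genes of other functions. Between H2-Oa and H2-Ea, RefSeq lists 16 genes, of which 14 were measured on a probe set of their own. The 8 outside the class II genes described here were all past the filter, 4 of them rose in LSK (Psmb9, Tap1, Psmb8 and Tap2, the class I processing genes that sit between H2-DMb1 and H2-Ob) and none fell. Over all probe sets 15.1% passed as higher and 7.19% as lower. Psmb8 and Psmb9 no longer passed after quantile normalization. By genotype none of the 8 was 2-fold, with values from -0.14 to 0.30 in LSK and from -0.59 (Brd2, a chromatin reader) to 0.26 in MP. Few probe sets of any kind were 2-fold: 0.595% higher and 0.226% lower in LSK, and 0.28% and 0.36% in MP. H2-Ob is next to Tap2 in this order, and the genotype differences of Tap2 were 0.18 in LSK and -0.10 in MP.

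**Figure D5:**
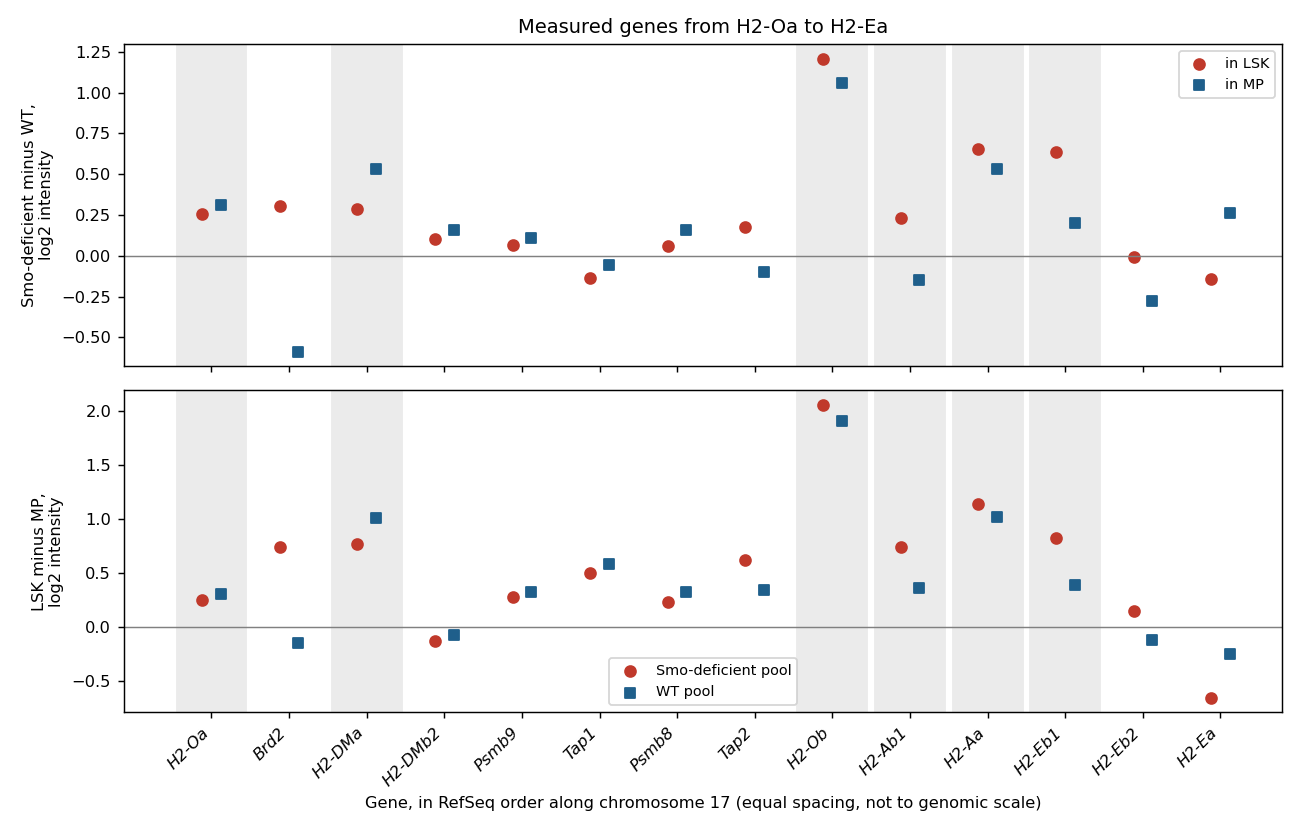
Measured genes from H2-Oa to H2-Ea in RefSeq order (equal spacing), with the class II genes shaded: Smo-deficient minus WT (top; circles LSK, squares MP) and LSK minus MP (bottom; circles Smo-deficient pool, squares WT pool), in log2 intensity. H2-Ob stands above both neighbours in either panel, and Tap1, Psmb8, Psmb9 and Tap2 are above 0 in LSK minus MP.

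Genes with the most similar pattern over the 4 arrays were sought among 1204 genes that were past the filter and ranged over at least 1 on the log2 scale. The mean centred profile of the 7 class II genes past the filter was 0.67 in Smo-deficient LSK, 0.14 in WT LSK, -0.22 in Smo-deficient MP and -0.59 in WT MP. By root mean square distance the closest were Cpne3 (0.0143), Arhgap30 (0.0233), Atp7a (0.032), Lair1 (0.0323), Ly9 (0.041), Sesn1 (0.041), Foxred2 (0.042) and Klhl24 (0.0468). The class II genes themselves were farther from their mean, from 0.107 (H2-DMa) to 0.676 (H2-Ob). The likeness rests on 4 arrays.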

How the data were processed

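The deposited table holds 1 intensity per probe set for each of 4 Affymetrix arrays. RMA, which corrects background, quantile normalizes and summarises probes, is named in the submitters' processing notes, with no version. Its usual output is log2, whereas the deposited intensity ranged between 12.3 and 44291. It was therefore taken as linear and log2 transformed without a pseudocount. Per the labels, the input was 20 ng of RNA with a 2-cycle amplification. The 4 array medians lay between 149.4 and 150.4. Quantile normalization may have removed a change shared by most genes, and precision is limited by having 4 arrays. Scanner files were not used here.

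Of 45101 probe sets, 64 controls were left out. In the platform annotation, 34945 had 1 gene, 932 several and 9160 none. A gene was represented by its brightest probe set among those with 1 gene. Probe sets with a mean above the 50th percentile were kept, 22518 in all, with 11904 named genes. LSK minus MP was fitted with limma 3.58.1 (lmFit, eBayes with trend, two-sided) in R 4.3.3, with the pool as a block (2 pairs, 1 residual degree of freedom) and Benjamini-Hochberg adjusted p under 0.05 as passing. The fit was tested on simulated data with independent noise, which does not check its p-values for real pools of different genotype. The spread was taken in 20 bins of mean level. Named genes were all members, genes of the lists past 2-fold by genotype or passing in LSK minus MP (at most 6 per list and comparison, by size), and the 8 nearest profiles. Other genes of the lists (dim or opposing markers, the other dendritic markers, the RFX and NF-Y subunits, Ctss, Marchf8, Canx and the neighbours of the H2 genes) were named after their values were seen. The members and lists were chosen with earlier results of these data known. Alternatives were 2 normalizations, no filter, 32 added before the log2, the median over probe sets, no _x_at or _s_at probe sets, no block, no trend, single pools, and other fold thresholds.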

Additional observations from a re-analysis of the deposited data

Results flagged for a closer look

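The genotype difference of H2-Ab1 had opposite signs in the 2 populations. It was 0.23 in LSK and -0.15 in MP on 1450648_s_at, 0.38 apart, and the other H2-Ab1 probe sets had the same signs (0.27 and -0.25, and 0.17 and -0.29). The signs held after quantile normalization (0.21 and -0.06) and cyclic loess (0.25 and -0.03), with 1 array on each side. The spread of this difference of differences over probe sets of like mean level was 0.21. The dim Ciita also had opposite signs, -0.03 in LSK and 0.14 in MP, or -0.17 between the populations, and its LSK value was 0.01 after cyclic loess. Neither difference could be tested with 1 array per group.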

How the results depend on the processing

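No paired analysis by replicate number was possible because every group has 1 sample, and the pool served as the block. Without the pool block, limma passed 0 of 7 genes and 0 of 12 probe sets in LSK minus MP (5 genes and 9 probe sets with an unadjusted p under 0.05). Of all 22518 probe sets 1058 passed in that fit, and 5272 had an unadjusted p under 0.05. Without _x_at and _s_at probe sets, which can read related sequences, 3 genes and 3 probe sets passed: H2-Aa then had no probe set, and H2-Ab1 was read on 1451721_a_at. Quantile normalization left 5 genes and 6 probe sets. By genotype in LSK, 3 genes were 1.5-fold and 0 were 3-fold higher. In MP, 0 were 3-fold, and with 32 added before the log2 0 were 2-fold, H2-Ob being at 0.97. The count of genes in LSK minus MP was 4 to 5 under the normalizations, the filter, the added intensity, the median over probe sets and no trend. Among values of single genes under an alternative, 154 kept their call or moved by less than the spread, 7 calls were lost (5 without the block, 2 for H2-Ab1) and 2 moved beyond the spread. Those 2 were of the dim Ciita, at -0.24 in LSK and -0.15 in MP with the median over probe sets. Over all probe sets, the medians of the 3 comparisons lay between -0.06 and 0.01 under the normalizations. Signals near the background limit what can be said of Ciita.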

Other observations

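H2-Ea, the alpha chain gene of I-E, is known to lack its promoter in C57BL/6 mice. Its probe sets disagreed: 1422891_at had 9.30 in Smo-deficient LSK, 9.44 in WT LSK, 9.95 in Smo-deficient MP and 9.69 in WT MP, while 1422892_s_at lay between 5.46 and 5.69 and 1426202_at between 4.60 and 4.75. On 1422891_at both MP arrays were above both LSK arrays, opposite to H2-Eb1, with LSK minus MP at -0.45 ± 0.14 (SE, 2 pairs; limma adjusted p = 0.0595), which did not pass.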
